A study of Solanum lycopersicum with 4 samples.

Results

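In tomato leaves held at 10 °C, 103 genes kept a transcript level within 2-fold of the starting level at 3 h and lay at least 4-fold below it at both 24 and 48 h. They are called the late-lowered genes here. They were chosen by those ratios, among the 13840 genes that were listed at all 4 times with a mean of at least 5 CPM (reads per 1000000 reads, or 1 M, of the scaled library), and they made up 0.744% of these. Of 26219 genes listed at any time, 22488 were listed at all of them. Because the ratios to 0 h chose the genes, those ratios are given as a description.

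The leaves were the first true pair of 3-week-old seedlings of the cultivar Moneymaker (Solanum lycopersicum), with no mutant or transgene named. Each of the 0, 3, 24 and 48 h times had 1 RNA-seq library, so no difference between times has a replicate check, and no p-value is given. Growth was at 25 °C with light of 100 µmol m-2 s-1, and treatment at 10 °C with light of 40 µmol m-2 s-1, with a 12 h day in both. All later libraries thus differed from growth conditions in temperature and in light, which cannot be told apart. The title of the 0 h library also names 10 °C, and its state at harvest is not described further. Pooling of plants and the clock time of sampling are both not given in the sources used here. By the sampling times alone, 3 h falls at another time of day than 0, 24 and 48 h. At 3 h, time of day and time at 10 °C cannot be told apart.

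Tomato comes from warm regions, and its leaves are sensitive to chilling. The level of a transcript is set by its synthesis and its decay, so a drop in synthesis shows late where the transcript is long-lived. Leaf RNA is drawn from mesophyll, epidermis, vascular cells and guard cells together. In such bulk samples fewer cells of a type and less RNA per cell cannot be told apart. The gene identifiers in the files carry no names that could be matched, so no function is given to any late-lowered gene and no leaf marker gene could be looked up. Genes are described by chromosome, length, level and neighbours, with chromosome and order read from the identifier.

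The libraries held 35.7 to 38.5 M unique reads and listed 24049 to 24472 genes. A gene at the filter limit had about 185 reads in a library, and equal counts of that size leave a 95% interval of -0.30 to 0.30 in log2. Intervals are exact Clopper-Pearson intervals and cover counting error only. Fold values of single genes are ratios of CPM, and log2 ratios have 0.135 CPM (5 reads) added to both levels, which understates the change of low genes. The late-lowered genes had 300 to 140718 reads at 0 h. At 24 h 10 of them had fewer than 50 reads, with a lowest count of 26. At 48 h 5 had fewer than 50, with a lowest count of 23.

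The late-lowered genes started above the typical gene and ended below it. Their median level was 39.7, 31.3, 5.61 and 6.02 CPM at 0, 3, 24 and 48 h. Over all genes compared the median was 21.2, 21.9, 21.7 and 21.8 CPM at the same times. The starting level varied widely, from 8.30 CPM to 3894 CPM, and the quartiles were 21.3 and 86.0 CPM. At 0 h 25 of the genes were under 20 CPM, 57 between 20 and 100 CPM, 14 between 100 and 1000 CPM and 7 at 1000 CPM or more. A gene that starts near 5 CPM and is 4-fold lower later averages less than the filter asks, so the filter favours genes with a higher start. The rule set the later drop, so the low medians at 24 and 48 h follow largely from the choice of genes.

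**Figure D1:**
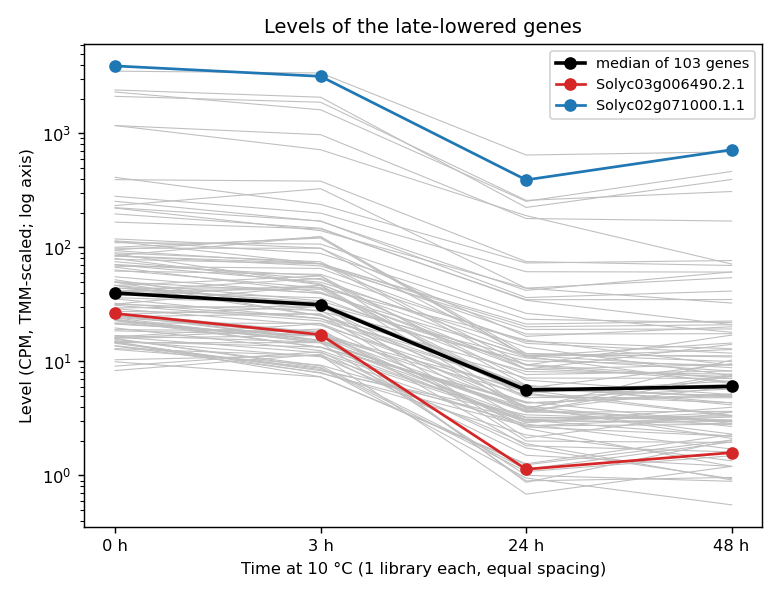
Level in CPM (log axis) of each late-lowered gene (grey lines) at 0, 3, 24 and 48 h at 10 °C, with 1 library per time at equal spacing. The black line is the median of the 103 genes, which goes from 39.7 CPM at 0 h to 5.61 CPM at 24 h, and the coloured lines are the gene with the lowest mean later ratio (red) and the most abundant gene (blue).

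The 4-fold rule was met by 193 of all genes compared at 24 h (1.39%), by 179 at 48 h (1.29%) and by 123 at both times (0.889%). All 103 late-lowered genes met it at both times by choice, so nothing is read from that. Their median log2 ratio to 0 h was -2.57 at 24 h, with a range of -4.38 to -2.03. At 48 h the median was -2.63 and the range -4.34 to -2.02. As folds, the drop was 4.12 to 23.2-fold at 24 h (median 6.04) and 4.08 to 24.9-fold at 48 h (median 6.37). At least 8-fold lower were 30 of them at 24 h (0.347% of all genes) and 27 at 48 h (0.282%). Of all genes, 0.181% passed 8-fold at both times. Among the late-lowered genes 15 did, 15 more passed 8-fold at 24 h alone and 12 at 48 h alone.

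The late-lowered gene with the lowest mean ratio over 24 and 48 h was Solyc03g006490.2.1 on chromosome 3, with a length of 1071 bases. Its reads numbered 950, 555, 43 and 66 at 0, 3, 24 and 48 h, or 26.3, 17.1, 1.13 and 1.58 CPM. The 24 and 48 h libraries were both far below the earlier ones, and 3 h lay between them and 0 h. The drop was 23.2-fold at 24 h (17.1 to 32.3) and 16.6-fold at 48 h (12.9 to 21.7). At 3 h the gene stood at 0.652 of its starting level (0.586 to 0.724). The later libraries did not differ beyond counting error, with a ratio of 48 h to 24 h of 1.40 (0.938 to 2.10).

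The next 3 genes by mean later ratio started lower, on chromosomes 5, 3 and 4. A 1688-base gene on chromosome 5 went from 13.7 CPM at 0 h and 8.70 CPM at 3 h to 0.947 CPM at 24 h and 0.551 CPM at 48 h. It had the lowest 48 h ratio of the late-lowered genes, a log2 of -4.34. An 869-base gene on chromosome 3 had 16.0, 16.8, 0.895 and 0.959 CPM, and a 1723-base gene on chromosome 4 had 14.6, 14.6, 1.00 and 0.887 CPM. These last 2 genes were at their starting level at 3 h, with log2 ratios of 0.07 and 0.00.

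A few abundant transcripts held most of the reads of the late-lowered genes. Their summed share of unique reads was 2.11% at 0 h and 1.68% at 3 h. It was 0.335% at 24 h and 0.426% at 48 h. The 8 most abundant genes accounted for 1.59%, 1.26%, 0.235% and 0.322% of all reads at the 4 times. The other 95 genes accounted for 0.524%, 0.424%, 0.100% and 0.104%. The 8 genes thus held between 70.1% (24 h) and 75.6% (48 h) of the reads of the whole list, and the upturn of its summed share between 24 and 48 h lay almost wholly in them.

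The most abundant late-lowered gene was Solyc02g071000.1.1 on chromosome 2, 798 bases long. Its reads numbered 140718, 102227, 14821 and 29898 at 0, 3, 24 and 48 h, or 3894, 3155, 390.0 and 717 CPM. The lowest library was that of 24 h, and 48 h lay between 24 h and the earlier times. It was 9.98-fold lower than at 0 h at 24 h (9.82 to 10.2) and 5.43-fold lower at 48 h (5.37 to 5.50). From 24 to 48 h it was 1.84-fold higher (1.80 to 1.87). In the deposited RPKM (reads per kilobase and per M reads), a scale that allows genes of unequal length to be compared, it held rank 24 of the genes compared at 0 h and rank 85 at 48 h.

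The other 7 of the 8 most abundant genes did not share one course after 24 h. A 1001-base gene on chromosome 6 had 2397, 2070, 223.5 and 393 CPM at the 4 times, and an 804-base gene on chromosome 3 had 2299, 1606, 253 and 462 CPM. Both were lowest at 24 h, and at 48 h they stood 1.76-fold and 1.83-fold above it. A 1194-base gene on chromosome 12 went the other way, with 1168, 717, 189.5 and 71.3 CPM, 16.4-fold below 0 h at 48 h (15.8 to 17.0). Its level at 48 h was 0.376 of that at 24 h. A 429-base gene on the same chromosome began at the same level and had 1168, 971, 179 and 170 CPM. The smallest of the 8, also on chromosome 12 and 372 bases long, had 411, 237, 72.8 and 76.5 CPM, so it and the 429-base gene differed little between the later times.

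By deposited RPKM most of the late-lowered genes were not among the most abundant at any time, and their median rank at 0 h was 3987 of 13840. Among the 100 highest genes 7, 6, 0 and 2 were late-lowered at 0, 3, 24 and 48 h. Among the 1000 highest there were 16, 12, 8 and 7, where the late-lowered genes made up 0.744% of all genes compared. Their median RPKM was 26.7, 20.5, 4.50 and 4.92 at these times, against 13.6, 13.5, 16.1 and 16.6 for all genes compared. This fall restates, per length, the ratios that chose the genes.

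At 3 h most of the late-lowered genes were already somewhat below their starting level. Below 0 h were 83 of them, where 49.6% of all genes compared were, and 20 lay above, where 50.4% of all genes were. Their median log2 ratio was -0.37, against 0.00 for all genes. The window of the rule fixed the range at 2-fold either way, in which 94.1% of all genes fell, and values within it ran from -0.99 to 0.55. At least 1.5-fold below 0 h were 27 of the 103 genes, and 4.57% of all genes. Since these ratios share the 0 h library with the later ones that chose the genes, a high count at 0 h lowers all of them.

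Measured against counting error, 75 of the late-lowered genes were lower at 3 h than at 0 h, 13 were higher and 15 did not differ. Over all genes compared, 27.7% were lower and 30.3% higher by the same measure. The 75 genes stood at 0.498 to 0.970 of their starting level, with a median of 0.711. Their median later log2 ratios were -2.52 at 24 h and -2.56 at 48 h. For the 15 genes that did not differ, these medians were -2.56 and -2.60.

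The 13 genes that were higher at 3 h stood 1.18 to 1.47-fold above 0 h at that time (median 1.30). The largest such gene by ratio, 1031 bases long on chromosome 3, had 84.5 CPM at 0 h, 124 CPM at 3 h, 11.1 CPM at 24 h and 6.38 CPM at 48 h. The most abundant of the 13, on chromosome 10, had 232, 327, 43.8 and 32.4 CPM. In both genes 3 h was the highest library and 48 h the lowest. The median later log2 ratios of the 13 genes were -2.92 at 24 h and -2.98 at 48 h. These medians and those of the groups above rest on ratios to the same 0 h library that split the groups. They are given as a description only. Nothing was sampled between 3 and 24 h, so it is not known when in that time any of the levels dropped.

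Set against 3 h, a library that did not define the start of the ratio, most of the genes were again lower by 4-fold. At 24 h 70 of the 103 were at least 4-fold below 3 h, where 2.49% of all genes were, and at 48 h 74 were, where 2.28% of all genes were. The 3 h window and the later threshold allow at the least a 2-fold drop, so these counts follow in large part from the rule. The drop from 3 h to 24 h had a median log2 of -2.23 and a range of -4.21 to -1.25. The drop from 3 h to 48 h had a median of -2.28 and a range of -4.25 to -1.31.

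**Figure D2:**
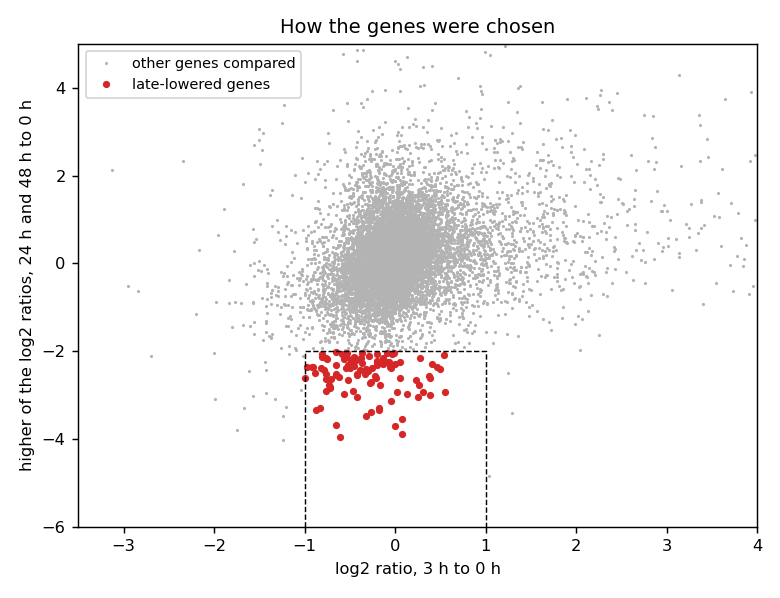
For each gene compared (grey) and each late-lowered gene (red), the log2 ratio of 3 h to 0 h is plotted against the higher of the log2 ratios of 24 h and 48 h to 0 h, with dashed lines at the limits of the rule. The late-lowered genes lie in the lower centre between -0.99 and 0.55 on the x axis, more of them left of 0 than right of it, and genes outside the drawn axes are not shown.

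Fewer genes were lost at the 3 h limit than at the later one. Of the 123 genes that were 4-fold lower at both later times, 20 fell outside the 3 h window, 17 of them on the low side and 3 on the high side. That is a larger share than over all genes compared, of which 94.1% fell inside. The late-lowered gene nearest to the low side, on chromosome 9, had 14.7, 7.32, 1.26 and 2.28 CPM and a 3 h log2 ratio of -0.99. The nearest gene outside, on chromosome 3, had 65.4, 32.2, 6.66 and 15.2 CPM and a ratio of -1.02. On the high side the last gene inside was at 0.55 and the first outside at 1.04. No gene with both later ratios past the threshold lay between these.

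The later threshold cut through a continuous range of values. Just inside lay a gene on chromosome 4 with log2 ratios of -2.33 at 24 h and -2.02 at 48 h and a gene on chromosome 1 with -2.03 and -2.76. Just outside lay a gene on chromosome 3 that had 73.3 CPM at 0 h, 18.0 CPM at 24 h and 18.3 CPM at 48 h and a gene on chromosome 1 with -1.99 and -2.76. These values lie closer to the limit than their counting error, so the list has no sharp edge there. A further 57 genes within the 3 h window were 4-fold lower at 24 h alone, with a median log2 ratio of -1.70 at 48 h. Another 51 were 4-fold lower at 48 h alone, with a median of -1.55 at 24 h. At the time they missed, 54 of the 57 and 49 of the 51 were still at least 2-fold lower.

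Between 24 and 48 h the late-lowered genes had no common direction. The median log2 ratio of 48 h to 24 h was -0.02, against 0.00 for all genes compared, and with plain library totals in place of the scaled ones it was 0.05. At 48 h 56 of the genes were below their 24 h level (49.8% of all genes were) and 47 above it (50.2%). Of the 103 genes, 2 were at least 2-fold lower (1.47% of all genes) and 3 at least 2-fold higher (1.12%). As shares of the 103 these small counts lie above those of all genes. None was 4-fold different in either direction (0.101% of all genes in each). Both times were held under the same limit by the rule, which narrows the room between them.

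Single genes moved in both directions. Beyond counting error 32 genes were lower at 48 h than at 24 h (31.1%, against 32.1% of all genes), 26 were higher (25.2%, against 32.5%) and 45 did not differ. Many late-lowered genes have few reads at these times, and the median half-width of the interval among them was 0.28 in log2. In genes with wider intervals than that, a change smaller than 0.28 could not be seen. The 13 genes that were higher at 3 h included 6 that were lower at 48 h than at 24 h and 3 that were higher. Among the 75 that were lower at 3 h the numbers were 22 and 19.

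**Figure D3:**
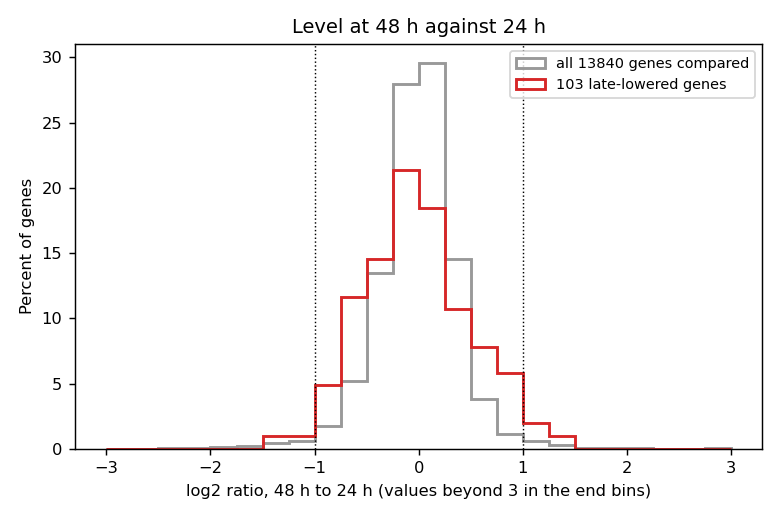
Percent of genes (y axis) by log2 ratio of 48 h to 24 h (x axis) for the late-lowered genes (red) and for all 13840 genes compared (grey), with dotted lines at 2-fold. Both distributions are centred near 0, and the late-lowered one is the wider of them near the centre, with 2 genes below and 3 genes above the dotted lines.

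At least 2-fold apart between the later days were 5 genes, of which 2 are neighbours. The 1194-base gene on chromosome 12 described above had the lowest ratio, a log2 of -1.41. The next was an 891-base gene on chromosome 5 with 16.4 CPM at 0 h, 21.4 CPM at 3 h, 2.58 CPM at 24 h and 1.20 CPM at 48 h. The highest ratio belonged to a 1413-base gene that is not assigned to a chromosome, with 46.2, 56.0, 3.82 and 10.3 CPM. It stood 2.69-fold higher at 48 h than at 24 h (2.22 to 3.27) and was still far below its starting level. The other 2 genes that were more than 2-fold higher are neighbours on chromosome 8, with log2 ratios of 1.11 and 1.02.

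The late-lowered genes lay on all 12 chromosomes. Chromosome 1 held 14 of them (13.6%, against 13.4% of all genes compared), chromosome 2 held 13 (12.6%, against 10.5%) and chromosome 4 held 12 (11.7%, against 8.36%). Chromosome 12 held 9 (8.74%, against 6.03%). The fewest were on chromosome 7, with 3 (2.91%, against 7.66%). These shares rest on small numbers and are given as counts.

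In length the late-lowered genes resembled the rest, with a median of 1417 bases against 1487 over all genes compared. Their range was 372 to 10560 bases, with 4 genes under 500 bases and 4 over 3000. The 3 shortest, of 372, 417 and 429 bases, were all on chromosome 12. Reads covered a median of 97.5% of the gene at 0 h (97.0% over all genes), by the deposited coverage. At 24 h the median was 90.3% and at 48 h 88.5%, when there were fewer reads to cover the genes. Under 50% coverage at 0 h were 3 of them, of which 2 are neighbours on chromosome 2.

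The 146 genes that were 4-fold lower at 24 or 48 h but missed some part of the rule serve as a comparison. Their median level at 0 h was 31.5 CPM, against 39.7 CPM for the late-lowered genes, and their median length was 1328 bases. At 48 h against 24 h, 13 of them were at least 2-fold lower and 18 at least 2-fold higher. Among the late-lowered genes these numbers were 2 and 3. Of the 146 genes, 57 within the 3 h window were 4-fold lower at 24 h alone and 51 at 48 h alone. The late-lowered genes had to be 4-fold lower at both times. The groups were thus chosen by different rules on the same ratios, and the cause of the difference between them was not tested. Chromosome 7 held 15 of the 146 (10.3%), so its low share among the late-lowered genes was not seen there.

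Some of the late-lowered genes lay close to each other by identifier. Tomato identifiers count genes along a chromosome, and late-lowered genes whose numbers were at most 100 apart were joined into runs. Other listed genes can thus lie between the late-lowered genes of a run. There were 9 such runs, 7 pairs and 2 sets of 3, with 20 genes in all. Of the 851 genes compared that lay within that distance of a late-lowered gene, 20 were themselves late-lowered (2.35%, against 0.744% of all genes compared). The 831 others had median log2 ratios of -0.03 at 24 h and -0.02 at 48 h. Among them 20 were 4-fold lower at 24 or 48 h. Over all 13840 genes compared, 146 were so without being late-lowered, a smaller share. At least 2-fold lower at both times were 57 of these neighbours (6.86%), against 780 of all genes compared (5.64%). The 780 include the 103 late-lowered genes, which meet this by the rule, so the share without them is below 5.64%. Most neighbours of a late-lowered gene therefore did not move with it.

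Several pairs had alike ratios of 3 h to 0 h or of 48 h to 24 h, but not always of both. The rule used all 4 libraries, so these values are a description. In each pair given here the genes followed each other directly among the listed genes. The pair on chromosome 8 had 19.0, 18.4, 0.868 and 2.04 CPM in the 1736-base gene and 31.7, 46.2, 3.61 and 7.43 CPM in the 2535-base gene. Both were more than 2-fold higher at 48 h than at 24 h, while their log2 ratios of 3 h to 0 h were -0.04 and 0.54. A pair on chromosome 3, of 1031 and 1653 bases, was higher at 3 h in both genes (log2 0.55 and 0.41) and lower at 48 h than at 24 h in both (-0.78 and -0.81). A pair on chromosome 4 was higher at 3 h in both genes, with 0.37 and 0.25, and had ratios of 48 h to 24 h of -0.41 and -0.16. A second pair on that chromosome was lower at 3 h in both, with -0.66 and -0.66, and had ratios of 48 h to 24 h of 0.30 and 0.03. Most late-lowered genes were lower at 3 h, so that direction is common among them.

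Other neighbours differed. A second pair on chromosome 3 had 3 h ratios of 0.23 and -0.44, and ratios of 48 h to 24 h of -0.87 and -0.01. On chromosome 12 the abundant 429-base gene was level between the later days (-0.07), while the 747-base gene of its run had 196, 147, 34.3 and 20.9 CPM and was lower (-0.71). Near-identical copies next to each other share reads, and unique counting can split or drop these, so values of such neighbours are uncertain. One run on chromosome 2 holds a 10560-base gene with only 9.27% of its length covered beside a 2443-base gene with 27.9% covered. Whether their reads come from a shared or overlapping stretch was not tested.

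**Figure D4:**
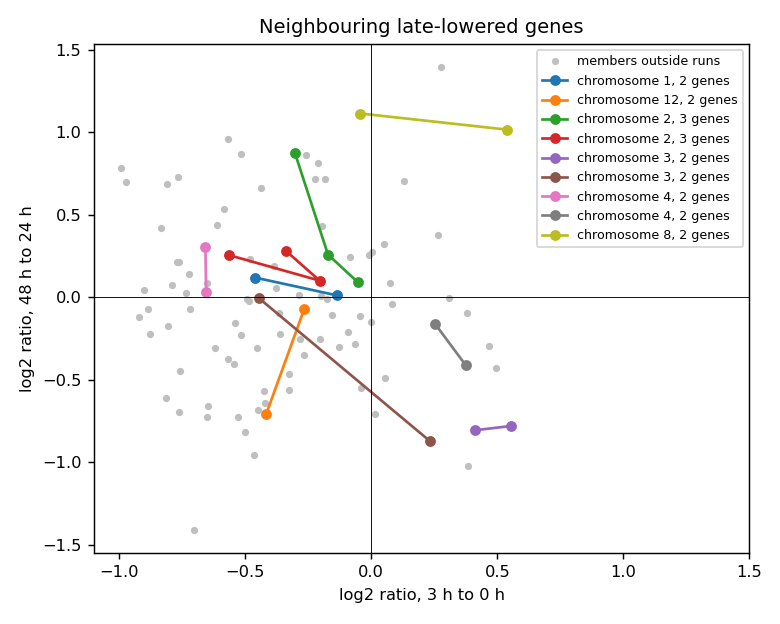
Log2 ratio of 3 h to 0 h (x axis) and of 48 h to 24 h (y axis) for the late-lowered genes, with grey dots for genes outside runs and coloured points joined by lines for the 9 runs of neighbours. Among the runs the chromosome 8 pair lies highest, at 1.11 and 1.02, below 1 gene outside runs at 1.40. The joined pair on chromosome 3 (brown) lies apart on both axes, at 0.23 and -0.44 (x) and at -0.87 and -0.01 (y).

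The most abundant run was a set of 3 genes of 798 bases each on chromosome 2, which lie inside a row of 7 neighbouring genes of that same length. The row was singled out after its values were seen. By deposited RPKM its genes stood, in identifier order, at 8093, 3992, 5079, 4118, 2476, 4577 and 5795 at 0 h. At 48 h they stood at 3986, 1242, 1817, 960.5, 432, 1003 and 2498. Numbers 4, 5 and 6 are late-lowered genes, and number 6 is Solyc02g071000.1.1.

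The 4 others of the row were lower on both days too, but short of the rule. Their log2 ratios to 0 h at 24 h were -1.43, -2.62, -2.25 and -1.90 for genes 1, 2, 3 and 7. At 48 h the same genes had -1.27, -1.94, -1.73 and -1.47. The 3 late-lowered genes of the row had -2.44, -3.03 and -3.32 at 24 h and -2.35, -2.77 and -2.44 at 48 h. The row thus held a graded drop that was deepest in genes 5 and 6, and the rule divided it. The next gene by identifier, 1157 bases long, was lower too, with -1.42 at 24 h and -1.12 at 48 h. Reads covered 27.05% of it at 0 h, and whether it shares reads with the row was not tested.

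All 7 genes of the row were near their starting level at 3 h, with log2 ratios of -0.30 to 0.05, and all were higher at 48 h than at 24 h, by 0.09 to 0.88. Their summed share of unique reads was 2.72%, 2.51%, 0.706% and 0.953% at 0, 3, 24 and 48 h. Reads covered 86.0% to 99.6% of each gene at every time. Genes of equal length side by side may be copies of each other, and reads that match several of them may be missing from unique counts or split. The order of the 7 genes is therefore less certain than the drop of their summed reads.

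**Figure D5:**
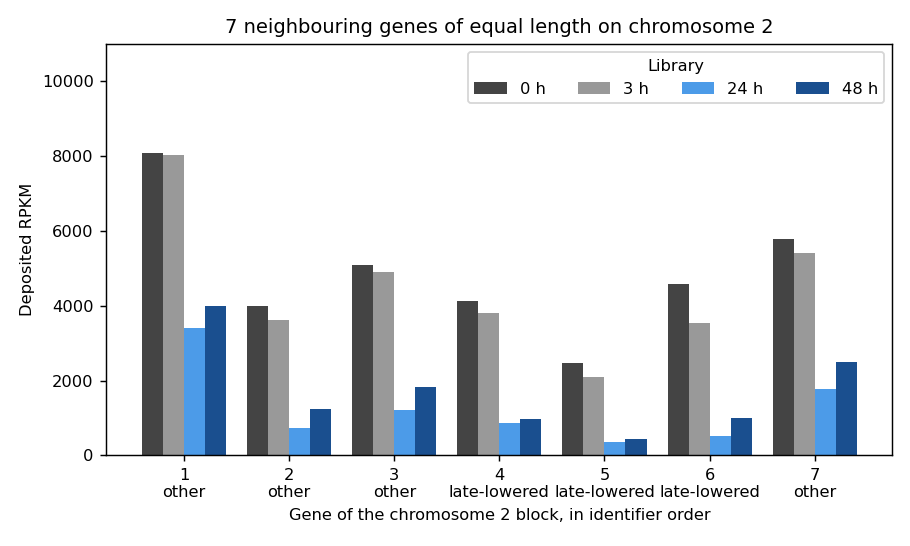
Deposited RPKM (y axis, from 0) of the 7 neighbouring 798-base genes on chromosome 2 in identifier order, with 1 bar for each library (0, 3, 24 and 48 h). In each gene the 2 later bars are below the 2 earlier ones and the 48 h bar is above the 24 h bar, and the 3 late-lowered genes are marked under the axis.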

How the data were processed

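Tomato leaf RNA-seq libraries were assigned to times from their titles, with 1 library at each of 4 times. Per the file headers, the deposited files gave per gene a count of unique reads, a length, a coverage percent and an RPKM. The authors' RPKM equalled the count divided by length and library total. The aligner, counter, strand setting, genome build and annotation are all not given in the sources used here. TRIzol extraction, DNase treatment and column cleanup preceded standard Illumina library making, per the labels' protocols.

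Deposited counts were scaled by TMM in edgeR 4.0.16 under R 4.3.3, with factors of 0.938, 0.897, 1.06 and 1.12 at 0, 3, 24 and 48 h, from all genes listed at any time. CPM, log2 ratios, intervals and runs were computed in Python 3.11.15. edgeR served for scaling only. The computation was tested on simulated counts with preset drops and counting error only, which do not cover the spread between plants or libraries.

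The rule, its members and the lists were chosen with earlier results of these data known. None of the 41476 genes of the RefSeq table of assembly SLM_r2.1 carries these identifiers, and words left in unnamed columns for 73 genes touched 0 late-lowered genes. Planned functional groups, marker genes, promoters and proteins were therefore not used. With no names, identifiers were limited to the late-lowered gene with the lowest mean later ratio and the one with the highest level at 0 h. Alternatives covered scaling (DESeq2 1.42.0 size factors, plain totals), pseudocount, filter, fold limits and run distance.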

Additional observations from a re-analysis of the deposited data

Results flagged for a closer look

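Of the 103 late-lowered genes, 13 were higher at 3 h than at 0 h beyond counting error, the opposite direction to their later ratios. The rule fixed the later direction, and 30.3% of all genes compared were higher at 3 h by the same measure, so the count is no result about the late-lowered genes. Each time has 1 library, so this difference between times was not tested.

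Outside the genes compared, 13 genes had no read at 24 and 48 h and more than 3 reads at both 0 and 3 h. The highest of them had 43 reads at 0 h, and a count of 0 allows up to 3 reads. No fold is given for these.

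Below the filter, 56 of 8648 genes that were listed at all times with a mean under 5 CPM otherwise met the rule. Their median level at 0 h was 3.65 CPM, where counting error is wider than for the genes reported.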

How the results depend on the processing

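The 103 late-lowered genes became 159 with no filter on low values (all 103 among them), 54 at a minimum of 20 CPM, 227 with a 3-fold and 15 with an 8-fold limit. DESeq2 size factors gave 102 genes, plain library totals 75 (74 of them in the list), pseudocounts of 0.5 and 25 reads 104 and 96, a 1.5-fold window at 3 h 76, no 3 h condition 123, and genes absent from a file taken as 0 gave 103. With plain totals the median log2 ratio of all genes was 0.20 at 24 h and 0.26 at 48 h, against 0.02 and 0.00 with TMM. The median of the 103 genes at 48 h with plain totals was -2.39. Members in runs numbered 31 at a distance of 200 and 17 at 50. The log2 ratios of Solyc03g006490.2.1 ranged from -4.52 to -3.90 at 24 h and from -4.04 to -3.58 at 48 h, and those of Solyc02g071000.1.1 from -3.32 to -3.14 and from -2.44 to -2.19. Genes 4-fold below 0 h numbered 386 without a filter and 90 at 20 CPM for 24 h, and 337 and 86 for 48 h. From 24 to 48 h, genes 2-fold lower numbered 473 and 114, 2-fold higher 535 and 63, 4-fold lower 32 and 4 (9 with 25 reads) and 4-fold higher 72 and 4. The 2-fold counts were added after seeing the data. The cause of each shift beyond the change of setting was not tested. No paired analysis was possible because the times have 1 library each, so leaving out a library would remove a time.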
